A study of Homo sapiens with 28 samples.

Results

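The regions described here are 2 contigs of the human reference that carry ribosomal DNA, chrKI270733.1 and chrGL000220.1, and all reads placed on them in nucleotide-recoding RNA-seq of HEK293T cells. They were chosen by name, whatever gene the authors had given a read, and are 2 of the 128 reference sequences that held reads. Under setting D of the authors they held 6748673 of the 64571814 reads aligned with HISAT-3N (10.5%), of which 5110874 lay on chrKI270733.1 and 1637799 on chrGL000220.1. With the aligner STAR they held 2833817 of 71420834 reads (3.97%).

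HEK293T is a wild-type human embryonic kidney line that carries the SV40 large T antigen. Cells were given 100 µM 4-thiouridine (s4U), a uridine analogue that is built into RNA while it is being made, for 2 h, or were left without it. A chemical step then changed how s4U is read, so that a T-to-C mismatch in a read marks RNA made during the label. The 3 chemistries were NaIO4 with TFEA at pH 5.2, iodoacetamide, and OsO4 with NH3. Each was run under drop-out (DO) and improved (IH) handling, and each chemistry with each handling had 2 labelled libraries and 1 unlabelled one, which gave 18 libraries in 12 groups. The labels do not say whether replicates came from separate cultures, so the p-values measure the spread between these libraries, which may be technical. The other 10 samples of the series, from 5 other chemistries, were not analysed here.

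Ribosomal RNA is made by RNA polymerase I from tandem gene copies as one long precursor, the 45S RNA. The precursor is cut in the nucleolus: external and internal transcribed spacers are removed and degraded, and the mature 18S, 5.8S and 28S rRNAs remain and are very stable. Reads of spacers therefore come from short-lived precursor, whereas reads of mature segments come from precursor and from old ribosomes alike. The RefSeq table of GRCh38.p14 lists the units without naming the contig, so their assignment to the contigs is general knowledge. The unit that belongs to chrKI270733.1, listed under chromosome 22, is RNA45SN4, from 122273 to 135645 (13373 bases). It contains RNA18SN4 from 125931 to 127799, RNA5-8SN4 from 128877 to 129032 and RNA28SN4 from 130204 to 135280. The unit of chrGL000220.1 is RNA45SN5, from 105424 to 118780 (13357 bases), with RNA18SN5 from 109078 to 110946, RNA5-8SN5 from 112024 to 112180 and RNA28SN5 from 113348 to 118417. The mature segments make up 53.1% of each unit, and the rest is spacer.

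The deposited table counts reads by contig, gene, intronic flag and the T positions and T-to-C mismatches of a read, and gives no position within a contig. Under HISAT-3N every read on both contigs was in the class without a gene, 0 reads had a named gene and 0 were intronic. Mature rRNA, spacer and any other contig sequence therefore cannot be told apart in these reads by annotation, and no antisense or strand class was given. Under STAR the reads were either without a gene or not uniquely placed: 33.5% of the chrKI270733.1 reads and 78.9% of the chrGL000220.1 reads were not unique. The library kit includes a step that cuts ribosomal cDNA, so the reads that remain are not an even sample of the rRNA in the cells. Its part in the results was not tested. Depth ran from 1935777 to 9962345 reads per library, and contig reads from 81722 to 792820.

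Ribosomal reads took a much larger share of the DO libraries than of the IH libraries. With NaIO4 and TFEA, the contigs held 17.1% and 19.6% of reads in the labelled DO libraries and 3.13% and 3.12% in the labelled IH libraries. With iodoacetamide they held 26.8% and 13.6% under DO and 8.44% and 7% under IH. With OsO4 and NH3 they held 20.6% and 22.5% under DO and 4.62% and 4.41% under IH. The lowest labelled DO library lay above the highest labelled IH library, and the 2 DO libraries of iodoacetamide differed from each other more than any other pair. Labelled DO libraries averaged 20% ± 4.52 and labelled IH libraries 5.12% ± 2.16 (SD, n = 6 each). The share fell by 14.9 percentage points from DO to IH (exact two-sided permutation test within chemistry, p = 0.00926, the smallest this design allows). Under STAR the labelled shares were 7.48% ± 1.56 for DO and 2.07% ± 0.733 for IH (SD, n = 6 each), a smaller difference of -5.41 points (exact permutation test, p = 0.00926).

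The same held in cells that never saw s4U. The unlabelled DO libraries had 16.2%, 24.4% and 22.1% of reads on the contigs for NaIO4 with TFEA, iodoacetamide and OsO4 with NH3, and the unlabelled IH libraries had 3.33%, 5.71% and 5.46%. The difference was -16.1 points, where the smallest p that 8 arrangements allow is 0.25. Over all 18 libraries it was -15.5 points (exact permutation test within chemistry and label state, p = 0.00116), and under STAR -5.93 points (p = 0.00116, same test). When the value of the matching unlabelled library was subtracted from each labelled one, the handling difference was 1.14 points (p = 0.954, exact permutation test). The share of contig reads that lay on chrKI270733.1 averaged 75.4% ± 3.47 in DO and 77.5% ± 2.05 in IH libraries (SD, n = 6 each), a difference of 2.1 points that did not pass the test (exact permutation test, p = 0.231). In bulk RNA, more ribosomal RNA and less of everything else in a library cannot be told apart from these shares.

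**Figure D1:**
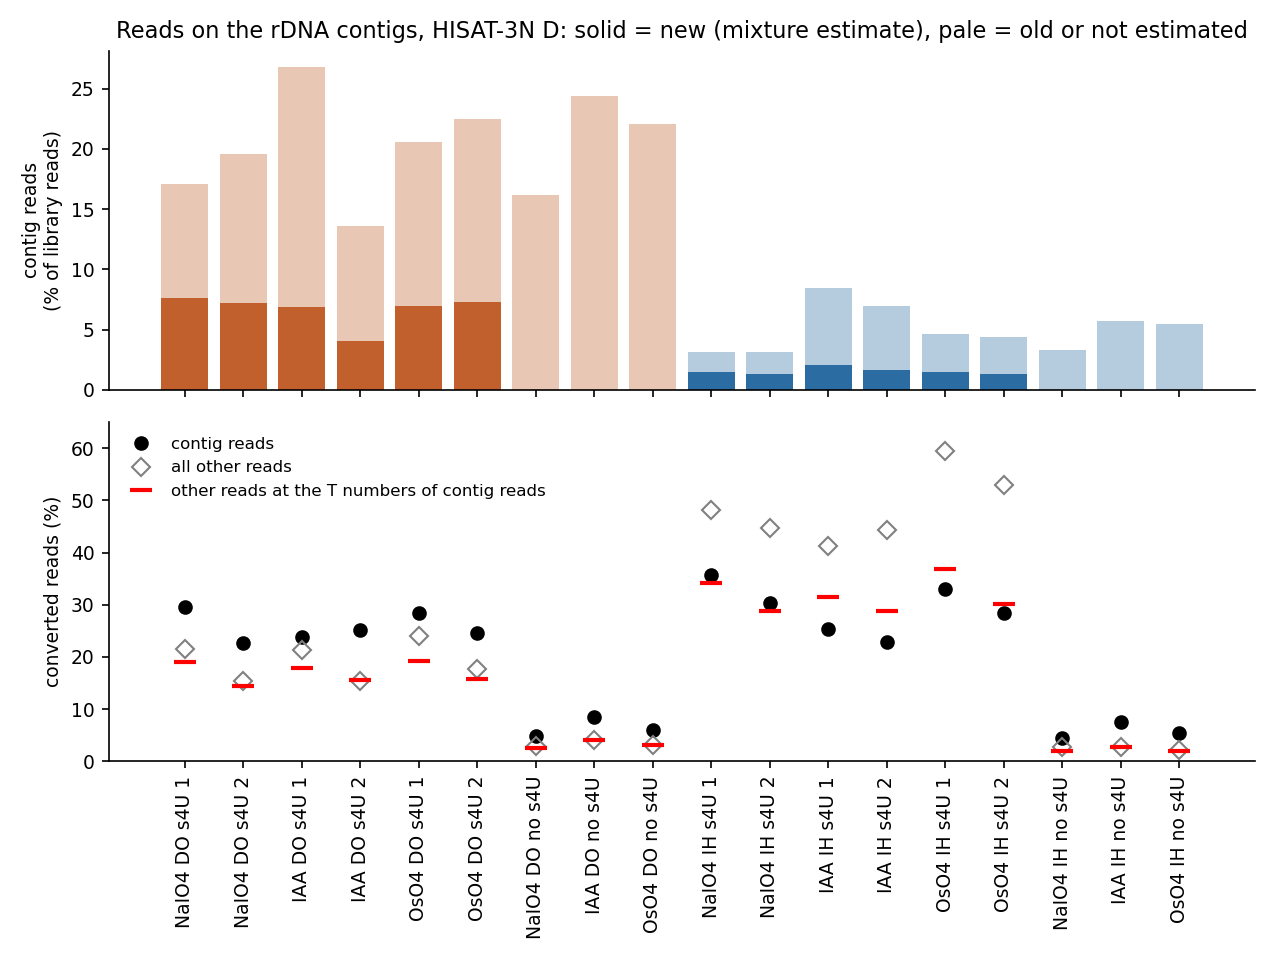
Top, reads on the 2 rDNA contigs as a percent of all reads in each library (bars from 0), with the estimated new part solid in the labelled libraries. Bottom, percent of converted reads (1 or more T-to-C mismatches) among contig reads (black), all other reads (open diamonds) and other reads weighted to the T numbers of contig reads (red); IAA is iodoacetamide. The 9 DO bars lie above the 9 IH bars, and in the 6 labelled IH libraries the black points lie below the diamonds. Chromosome 21 is kept among the other reads.

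After 2 h of s4U, between 22.7% and 35.7% of the contig reads carried at least 1 T-to-C mismatch (converted reads). With NaIO4 and TFEA, the converted share was 29.5% and 22.7% under DO against 4.81% without label, and 35.7% and 30.3% under IH against 4.51%. With iodoacetamide it was 23.8% and 25.1% under DO against 8.58%, and 25.4% and 22.9% under IH against 7.58%. With OsO4 and NH3 it was 28.5% and 24.5% under DO against 6.09%, and 33.1% and 28.5% under IH against 5.37%. Each labelled library lay above the unlabelled library of its own chemistry and handling, and iodoacetamide had the highest shares without label under both handlings. The label added 19.2 points under DO and 23.5 points under IH, each in 6 of 6 libraries (exact permutation test within chemistry, p = 0.037 each, the smallest that 27 arrangements allow). Wilson 95% intervals were 0.0596 to 0.315 points wide on each side. They cover counting error only, and they were smaller than the gap between replicates in each labelled pair.

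Between handlings, the converted share of contig reads moved far less than that of other reads. It came to 25.7% ± 2.72 under DO, and IH libraries had 29.3% ± 4.75 (SD, n = 6 each). The difference of 3.62 points did not pass (exact permutation test, p = 0.111). With the matching unlabelled library subtracted, it was 4.29 points (p = 0.037, exact permutation test), and among reads with at least 10 T positions it was 5 points (p = 0.037, same test). Without the second labelled IH library of iodoacetamide it was 4.02 points (p = 0.037, exact permutation test). Under STAR it was 0.957 points (exact permutation test, p = 0.611), and among uniquely placed STAR reads 0.44 points (p = 0.824). Counted per T position, DO libraries had 26 ± 5.71 mismatches per 1000 T and IH libraries 30.3 ± 4.53 (SD, n = 6 each), and that difference of 4.26 had p = 0.157 (exact permutation test). It was 6.68 with the unlabelled library subtracted (exact permutation test, p = 0.0463). Each subtracted value is that of 1 unlabelled library per chemistry and handling, whose own error the tests leave out. For iodoacetamide that rate was 12.7 per 1000 T under DO and 6.18 under IH. The unlabelled rates were 3.39 and 2.73 for NaIO4 with TFEA, and 5.21 and 5.09 for OsO4 with NH3. Without subtraction, leaving out a labelled DO library of iodoacetamide gave 6.14 without the first and 2.38 without the second. Under STAR the rate differed by 1.12 per 1000 T, and by 0.718 among uniquely placed reads (exact permutation tests, p = 0.602 and 0.713).

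Of the reads off the contigs, 19.2% ± 3.6 were converted in DO libraries and 48.5% ± 6.68 in IH libraries (SD, n = 6 each), a difference of 29.3 points (exact permutation test, p = 0.00926). Contig reads were thus converted more often than other reads in 6 of 6 labelled DO libraries, by 6.51 points, and in 0 of 6 labelled IH libraries, where they were 19.1 points lower (-19.1; exact sign-flip permutation tests over libraries, p = 0.0312 each, the smallest that 64 arrangements allow). Without label, contig reads were also converted more often, at 6.49% ± 1.92 against 3.37% ± 0.615 under DO (SD, n = 3). Under IH the unlabelled values were 5.82% ± 1.58 and 2.58% ± 0.294 (SD, n = 3). The labelled gaps include this background. In the first labelled DO library of iodoacetamide 23.8% stood against 21.3%, and in its unlabelled library 8.58% against 4.08%. The gap between contig and other reads itself differed between handlings by -25.7 points (exact permutation test, p = 0.00926). Under STAR the DO gap was 13.3 points and the IH gap -13.3, and among uniquely placed STAR reads they were 20.3 and -8.7 (exact sign-flip permutation tests, p = 0.0312 each). When at least 2 mismatches were required, the DO gap under HISAT-3N was 0.664 points (p = 0.375, exact sign-flip test). Only the 2 contigs were taken out of the other reads, so chromosome 21 was among them. Under DO it made up 16% ± 1.71 of a labelled library and was converted at 30.3% ± 3.23. Under IH these values were 4.61% ± 1.3 and 39.5% ± 5.07 (SD, n = 6 each). How far chromosome 21 moved the gaps was not tested.

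A read can show a mismatch only where it has a T, and contig reads had fewer of them. The mean number of T positions was 18.2 ± 1.37 per contig read under DO and 17.8 ± 1.1 under IH, against 29.8 ± 1.17 and 37.6 ± 2.86 for other reads (SD, n = 6 each). With other reads weighted to the T numbers of the contig reads of the same library, the DO gap was 8.73 points (6 of 6 libraries above, exact sign-flip test, p = 0.0312). The IH gap shrank to -2.41 points, with 2 of 6 libraries above, and did not pass (exact sign-flip permutation test, p = 0.156). The handling difference of the weighted gap was -11.1 points (exact permutation test, p = 0.00926). As counted, the lower conversion of contig reads under IH no longer passed at equal T numbers, and the higher conversion under DO did. Without label, contig reads were already higher at equal T numbers. They had 5.82% ± 1.58 against 2.22% ± 0.431 under IH, and 6.49% ± 1.92 against 3.23% ± 0.695 under DO (SD, n = 3 each). The weighted gaps were not corrected for this background, which is higher in contig reads and so makes the negative IH gap smaller. They therefore do not compare the label alone in contig and other reads. Whether T numbers account for the lower IH conversion was not tested.

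Set against the 26 reference sequences with at least 1000 reads in each library, the contigs changed place with handling. Under DO, chrGL000220.1 was converted at 28.9% on average, rank 2, and chrKI270733.1 at 24.6%, rank 7, where the median sequence had 18.9%. Under IH they had 34% and 27.9%, ranks 24 and 26, and the median sequence had 48.5%. The mitochondrial genome, transcribed by its own polymerase, moved in the same way, from 25.9% and rank 5 to 29.5% and rank 25. Chromosome 21, whose short arm carries 3 more annotated 45S genes, had rank 1 under DO (30.3%) and rank 21 under IH (39.5%). The ranks use the converted share as counted, not at equal T numbers, and contig reads had fewer T positions than other reads. These ranks are a description and were not tested.

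Labelled libraries held more contig reads with 1, 2 and 3 mismatches than unlabelled ones. Among labelled DO libraries, 15.7% ± 1.22 of contig reads had exactly 1 mismatch, 6.13% ± 1.22 had 2 and 2.08% ± 0.537 had 3 (SD, n = 6). Under IH these were 17.2% ± 2.47, 7.29% ± 1.67 and 2.61% ± 0.779 (SD, n = 6). Without label, 5.07% ± 0.908 of DO contig reads had 1 mismatch and 0.657% ± 0.295 had 2 (SD, n = 3). On these DO means, the label raised the reads with 2 mismatches by a larger factor than those with 1; that difference was not tested. A converted labelled contig read carried 1.84 ± 0.215 mismatches on average (SD, n = 12), and an unlabelled one 1.61 ± 0.476 (SD, n = 6), with 2.51 in the unlabelled DO library of iodoacetamide, above the highest labelled library at 2.13.

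At 7 or more mismatches the DO libraries overlapped, with 0.087% to 1.29% of contig reads when labelled and 0.0713% to 0.694% when not. The IH libraries did not, with 0.219% to 1.34% when labelled and 0.0336% to 0.187% when not. Among the most mismatched reads the aligners parted. Reads in which at least 50% of 10 or more T positions were mismatched numbered 63 to 1639 per labelled library under HISAT-3N, or 0.0181% to 0.428% of such reads, and 0 to 10 under STAR. They occurred without label as well, with 1594 reads in the unlabelled DO library of iodoacetamide, 210 in that of NaIO4 and TFEA and 73 in that of OsO4 and NH3, against 10, 1 and 120 in the IH libraries. Such reads were not always more frequent with label: their share was 0.0181% in the first labelled DO library of NaIO4 and TFEA against 0.0501% without label, and 0.026% in the second of iodoacetamide against 0.314%. The unlabelled DO library of iodoacetamide, with the most such reads of the unlabelled libraries, also had the highest unlabelled rate, 12.7 mismatches per 1000 T against 2.73 to 6.18 in the others. An alternative added after seeing the data left out all reads with at least 50% of their T positions mismatched, whatever their number of T positions. The label effect was then 19.2 points under DO and 23.4 under IH, and the handling difference in converted share 3.59 points.

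**Figure D2:**
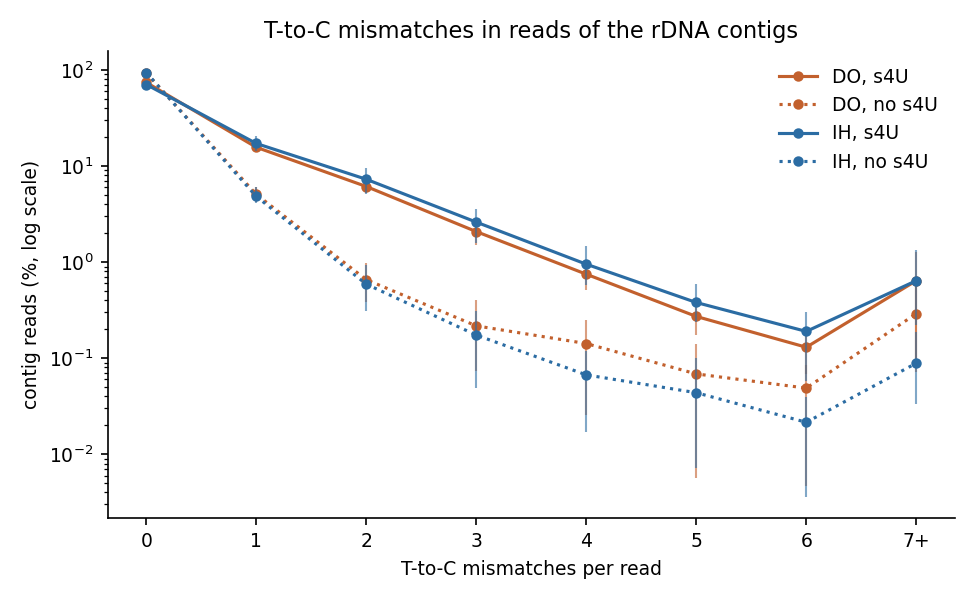
Percent of contig reads (log scale) with each number of T-to-C mismatches, as means over the labelled (solid, 6 libraries each) and unlabelled (dotted, 3 libraries each) libraries of DO and IH, with vertical lines from the lowest to the highest library. At 2 mismatches the labelled means are 6.13% under DO and 7.29% under IH, and the unlabelled DO mean is 0.657%; the last class rises because it holds all reads with 7 or more.

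To ask how much of the ribosomal signal was new, the reads of each labelled library were split into old and new. Old reads were taken to mismatch as in the matching unlabelled library, and new reads at a rate fitted on the intronic reads of the same library. Introns are removed soon after transcription and were used to fit this rate without being taken as all new. The fitted rate was 5.97% ± 1.33 of T positions under DO and 8.59% ± 1.91 under IH (SD, n = 6 each). By this measure, 23.5% to 46.3% of contig reads were new.

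The estimated new share was 44.5% and 36.8% under DO and 46.3% and 42.6% under IH with NaIO4 and TFEA. With iodoacetamide it was 25.7% and 29.9% under DO and 24.4% and 23.5% under IH. With OsO4 and NH3 it was 33.9% and 32.5% under DO and 31.5% and 29.5% under IH. The order of the chemistries was the same under both handlings, with NaIO4 and TFEA highest and iodoacetamide lowest. With the rate of new reads fitted on the contig reads, this order did not hold under DO, where iodoacetamide averaged 33.1% and OsO4 with NH3 32.1%. Old reads were modelled on 1 unlabelled library per chemistry and handling. Those of iodoacetamide had the highest converted shares without label, 8.58% under DO and 7.58% under IH. How far this background set the order was not tested. The largest gap between chemistry means was 12.9 points under DO and 20.5 points under IH, and neither can pass with 2 libraries per chemistry (exact one-way permutation test, p = 0.0667 each, the smallest that 90 arrangements allow). In the converted share itself, the largest gaps were 2.08 points under DO (p = 0.867) and 8.84 points under IH (p = 0.133, exact permutation test).

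Under HISAT-3N the new share differed between handlings by less than the spread among libraries. The DO mean was 33.9% ± 6.43 and the IH mean 33% ± 9.47 (SD over 3 chemistries, n = 6 each), a difference of -0.931 points that did not pass (exact permutation test, p = 0.63). By chemistry the difference was 3.8 points for NaIO4 with TFEA, -3.85 for iodoacetamide and -2.74 for OsO4 with NH3, which do not share a sign. Under STAR the difference was -7.36 points and passed (exact permutation test, p = 0.00926). It was 4.31 points with the rate of new reads fitted on the contig reads and 1.12 points with old reads modelled as a binomial (exact permutation tests, p = 0.315 and 0.583). Without the first labelled DO library of NaIO4 and TFEA it was 0.351 points under HISAT-3N (exact permutation test, p = 0.907).

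Both new and old ribosomal reads took less of an IH library than of a DO library. New contig reads were 6.68% ± 1.3 of all reads under DO and 1.54% ± 0.282 under IH (SD, n = 6 each), a difference of -5.14 points. Old contig reads were 13.4% ± 3.92 and 3.58% ± 1.91 (SD, n = 6 each), a difference of -9.78 points. Both differences passed (exact permutation test, p = 0.00926 each). Under STAR they were -2.56 points for new and -2.85 points for old reads, closer to each other in size (exact permutation test, p = 0.00926 each). Both parts were computed by splitting the contig share of a library by its estimated new share. Their tests are therefore not separate from the test of the contig share.

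Exonic gene reads, in contrast, were newer under IH. These reads lay off the contigs and off chromosome 21, and the mitochondrial genome was not left out. Of them, 12.7% ± 2.71 were new in DO libraries and 25.5% ± 2.88 in IH libraries (SD, n = 6 each), 12.9 points higher under IH (exact permutation test, p = 0.00926). Contig reads were newer than exonic gene reads by 21.2 points under DO, in 6 of 6 libraries, and by 7.42 points under IH, in 6 of 6 (exact sign-flip tests, p = 0.0312 each). The IH excess lay mostly in NaIO4 with TFEA, where the exonic shares were 25.9% and 25.2%. With iodoacetamide they were 21.9% and 23.2%, and with OsO4 and NH3 they were 30.1% and 27%, each within 3 points of the contig share. On chrKI270733.1 alone the IH excess was 5.41 points and did not pass (exact sign-flip permutation test, p = 0.406). It was 5.03 points with old reads modelled as a binomial (p = 0.469, exact sign-flip test). With the rate fitted on contig reads for the contig share and on exonic reads for the exonic share, it was 13.4 points (p = 0.0625, same exact test). Under STAR the excess was larger, 34.8 points under DO and 16.1 under IH (exact sign-flip permutation tests, p = 0.0312 each). The excess over exonic reads differed between handlings by -13.8 points (exact permutation test, p = 0.00926).

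Intronic reads off the contigs and off chromosome 21 had a new share of 42.4% ± 12.4 under DO and 83.4% ± 5.27 under IH (SD, n = 6 each), above the contig share in each IH library. Reads of chromosome 21 had a new share of 42.4% ± 6.95 under DO and 45.8% ± 6.57 under IH (SD, n = 6 each) and a handling difference of 3.37 points (exact permutation test, p = 0.148). Contig reads were 10.7 points below chromosome 21 over the 12 labelled libraries (-10.7, exact sign-flip test, p = 0.000488, the smallest this design allows). Chromosome 21 also followed the contigs in its share of reads, 16% ± 1.71 under DO and 4.61% ± 1.3 under IH (SD, n = 6 each). Under DO, most of its HISAT-3N reads were intronic reads of 2 gene identifiers, ENSG00000280441, with 44.3% ± 2.34 of the DO reads of the chromosome, and ENSG00000278996, with 32.7% ± 1.68 (SD, n = 6). Under STAR they held 1.47% ± 0.434 and 6.65% ± 2.72 of them (SD, n = 6). The tables used here do not pair these identifiers with symbols. These reads were among those that set the rate of new reads, and with the rate fitted off chromosome 21, an alternative added after seeing the data, the contig new share averaged 33.1% under DO and 32.7% under IH.

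**Figure D3:**
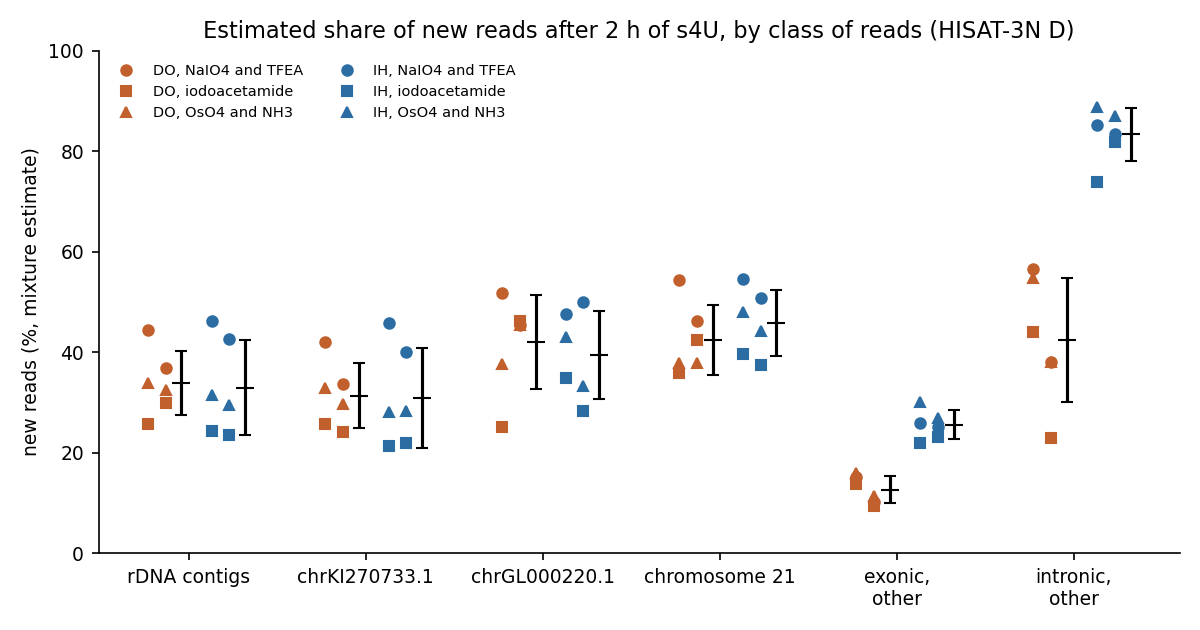
Estimated percent of new reads in each labelled library (one point per library, shape by chemistry, colour by handling) for the rDNA contigs together and singly, for chromosome 21, and for exonic and intronic gene reads of the other reference sequences. The mitochondrial genome is not left out of these last classes. Black bars are the mean ± SD of 6 libraries. The contig means are 33.9% (DO) and 33% (IH), whereas the exonic means are 12.7% and 25.5% and the intronic means 42.4% and 83.4%.

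The estimated new share of contig reads rose with the number of T positions from 5 to 39. The few reads with 1 to 4 T positions, 0.778% of labelled DO contig reads, had 10% ± 5.08 new under DO and 12.9% ± 8.06 under IH (SD, n = 6 each). In reads with 5 to 9 T positions, which made up 15.5% of labelled DO contig reads and 19.3% of labelled IH contig reads, it was 5.76% ± 2.65 under DO and 4.4% ± 2.35 under IH. In reads with 15 to 19 T positions it was 32% ± 6.37 and 32.5% ± 8.27. In reads with 25 to 29 it was 49.4% ± 11.2 and 48.8% ± 6.83, and with 30 to 39 it was 50.8% ± 13.5 and 54.7% ± 5.75 (SD, n = 6 each). Reads with 25 to 29 T positions were newer than reads with 5 to 9 by 44 points, in 12 of 12 libraries (exact sign-flip test, p = 0.000488).

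Exonic gene reads showed no such rise in the same estimate. Their new share was 16.7% ± 1.92 in reads with 5 to 9 T positions and 13.2% ± 2.49 in reads with 25 to 29 under DO, and 25.9% ± 2.84 and 25.1% ± 1.36 under IH (SD, n = 6 each). At 5 to 9 T positions the contig means lay below the exonic means, and at 25 to 29 above them. The handling difference of the contig values did not pass in either class. It was -1.36 points at 5 to 9 T positions (exact permutation test, p = 0.0833) and -0.604 at 25 to 29 (p = 0.88). Which segments of the unit these classes hold is not in the table. Numbers of T positions were uneven, with 7.89% of contig reads at exactly 16 and 6.28% at exactly 9.

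At 40 or more T positions the aligners differed. Under HISAT-3N the new share fell to 20.9% ± 9.66 under DO and 30.8% ± 3.2 under IH, and 26.8% ± 18.6 of the unlabelled DO reads of that class were converted (SD, n = 6, 6 and 3). Under STAR the unlabelled value was 8.72% ± 0.923 (SD, n = 3), and 74.1% ± 8.82 of DO and 58.8% ± 9.05 of IH contig reads were new (SD, n = 6 each). This class held 2% of labelled DO contig reads under HISAT-3N and 0.438% under STAR. In the classes below it the rise was also seen under STAR, from 7.77% ± 3.53 at 5 to 9 T positions to 56.7% ± 6.01 at 25 to 29 under DO, and from 7.32% ± 4.06 to 46.6% ± 4.48 under IH (SD, n = 6 each).

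**Figure D4:**
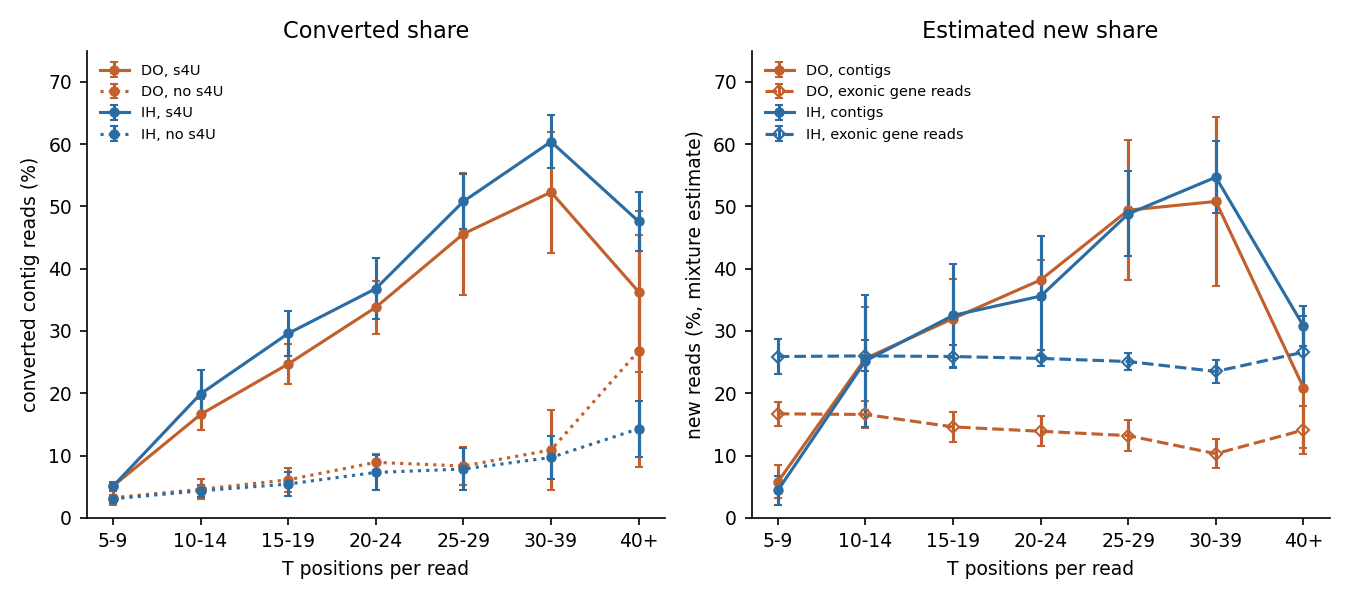
Left, percent of contig reads that were converted, by number of T positions, labelled (solid) and unlabelled (dotted). Right, estimated percent of new reads for contig reads (solid) and exonic gene reads (dashed); points are means and bars SD over 6 labelled or 3 unlabelled libraries of each handling, under HISAT-3N. Contig reads go from 5.76% (DO) and 4.4% (IH) new at 5 to 9 T positions to 49.4% and 48.8% at 25 to 29, while exonic reads of those classes have 16.7% and 13.2% under DO.

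The choice of aligner moved the size of the new share. STAR gave a higher converted share than HISAT-3N in 12 of 12 labelled libraries, by 2.11 points (exact sign-flip test, p = 0.000488), and a lower one in 6 of 6 unlabelled libraries. With at least 2 mismatches required, the difference between aligners was -0.117 points (exact sign-flip permutation test, p = 0.54). With STAR, 45.2% ± 7.21 of DO and 37.8% ± 7.32 of IH contig reads were new (SD, n = 6 each), 8.05 points above HISAT-3N in 12 of 12 libraries (exact sign-flip test, p = 0.000488). When the rate of new reads was fitted on the contig reads themselves under HISAT-3N, the rate was 5.5% ± 1.41 of T positions under DO and 6.57% ± 1.69 under IH, and the new share 36.3% ± 7.73 and 40.7% ± 13.7 (SD, n = 6 each). Over these 3 ways of estimating, single libraries ranged from 20.7% to 56.7% new.

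**Figure D5:**
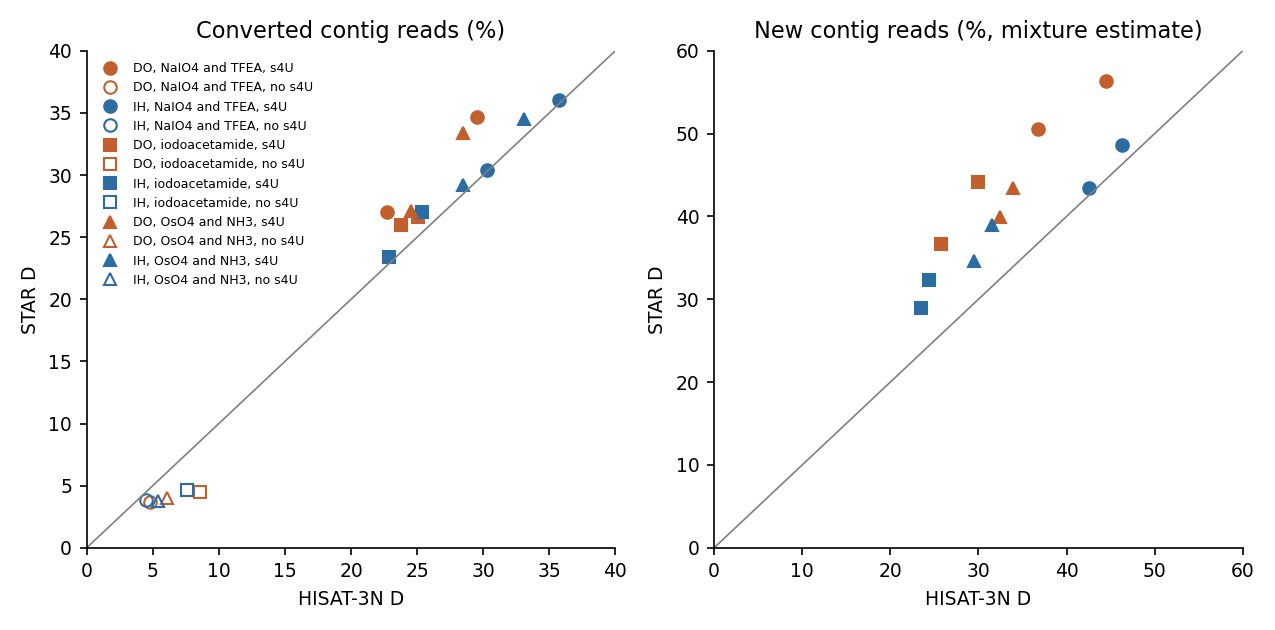
STAR against HISAT-3N for each library, as the percent of contig reads converted (left; filled, labelled; open, unlabelled) and the estimated percent new (right; labelled only), with shape by chemistry, colour by handling and the line of equal values in grey. All 12 labelled points lie above the line in both panels, and the 6 unlabelled points on the left lie below it.

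The 2 contigs differed under HISAT-3N, and the direction depended on the aligner. In DO libraries 24.6% ± 2.96 of reads on chrKI270733.1 and 28.9% ± 4.61 on chrGL000220.1 were converted, and in IH libraries 27.9% ± 4.85 and 34% ± 5.34 (SD, n = 6 each). chrKI270733.1 was lower in 11 of 12 labelled libraries, and the mean difference was -5.17 points (exact sign-flip test, p = 0.00293), and lower in 1 of 6 unlabelled ones. The exception was the first labelled DO library of iodoacetamide, with 24.6% on chrKI270733.1 and 20.7% on chrGL000220.1. The difference in new share was -9.58 points (exact sign-flip permutation test, p = 0.000977). Under STAR the converted share was 12.3 points higher on chrKI270733.1, and among uniquely placed STAR reads it was 0.649 points higher (exact sign-flip permutation tests, p = 0.000488 and 0.494). On chrGL000220.1 STAR placed 9952 reads without a gene and 37277 not uniquely, against 1637799 reads with HISAT-3N.

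One ribosomal transcript and the genes of rRNA synthesis were listed with degradation rate constants in the authors' deposited table, where the time unit is not stated. For RNA5-8S5, a 5.8S rRNA, the authors' deposited table gave a constant of 0.0219 under DO and 0.0194 under IH with NaIO4 and TFEA, 0.0165 and 0.0232 with iodoacetamide, and 0.0106 and 0.0199 with OsO4 and NH3. None of these passed in the authors' deposited table, with log2 changes of -0.16, 0.50 and 0.95 (adjusted p = 0.719, 0.198 and 0.12). Its IH constant in the authors' deposited table lay above 1.4%, 6.12% and 1.5% of all listed transcripts, and its DO constant above 23.1%, 20.2% and 4.47%. The table does not say from which genomic copy its reads came.

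Of 40 listed genes of RNA polymerase I and rRNA processing, 15, 14 and 12 were present for the 3 chemistries in the authors' deposited table. At an adjusted p of at most 0.05, 10, 8 and 6 of them were higher under IH and 0 were lower, where 52.6%, 48.9% and 48.1% of all transcripts in the authors' deposited table were higher and 0.679%, 1.44% and 0.442% lower. Their median log2 changes were 1.26, 0.998 and 1.12, beside 1.18, 1.14 and 1.19 for all transcripts of the authors' deposited table, so the list moved much like the rest. TAF1D, a subunit of the polymerase I selectivity factor, rose by log2 2.37, 3.24 and 3.13 in the authors' deposited table (adjusted p = 6.79e-07, 8.92e-10 and 9.23e-07). POLR1A, the largest subunit of polymerase I, rose by 1.79, 1.36 and 1.73 there (adjusted p = 9.72e-06, 0.00578 and 0.000406 in the authors' deposited table). NPM1, a nucleolar chaperone, rose by 1.62, 1.67 and 0.99 (adjusted p = 0.000496, 0.00108 and 0.029 in the authors' deposited table). For UBTF, which opens rDNA for polymerase I, the authors' deposited table gave 0.15, 0.22 and 0.41, and for nucleolin (NCL) 0.10, 0.14 and -0.02, none of which passed.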

How the data were processed

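Total RNA of HEK293T cells was converted by 1 of 3 chemistries and sequenced from stranded total-RNA libraries, per the labels' protocols. The authors deposited counts of reads by library, aligner, setting, contig, gene, intronic flag, T-to-C mismatches and T positions. They also deposited rate constants per transcript, their log2 fold change between handlings and an adjusted p-value, whose method is not given in the sources used here. Reads were trimmed with cutadapt and aligned to GRCh38, per the submitters' processing notes. How reads with several placements were handled, and what the setting D means, is not given in the sources used here. Columns of the count table that could not be mapped to a sample numbered 0.

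Reads on chrKI270733.1 and chrGL000220.1 under HISAT-3N D were summed per library, with STAR D as the alternative. The members and lists were chosen with earlier results of these data known. Converted reads had at least 1 T-to-C mismatch. New shares came from a mixture fitted by expectation maximisation (Python 3.11.15, NumPy 2.4.6, pandas 2.3.3): old reads followed the mismatch counts of the matching unlabelled library at the same T number, smoothed with 50 binomial reads, and new reads a binomial at the rate fitted on intronic reads off the contigs. It assumes that new rRNA and new introns take up s4U at the same rate. The mixture was tested on simulated data that met its own assumptions, which does not test those assumptions. Libraries were the unit of each test: exact permutation within chemistry, or exact sign flips over libraries (SciPy 1.17.1). Read counts over reference sequences differed between libraries of a group by far more than counting noise (chi-square per degree of freedom 58.2 to 9584, with 31 degrees), so none was a duplicate.

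No contig read had a gene or an intronic flag. The rule for named genes on the contigs (each gene value with a mean of at least 100 reads per library) therefore named none, and the edgeR tests of contig features and the comparison of intronic with other contig reads were not run. Markers of HEK293 cells and sequences of the contigs were not used here, since the tables at hand pair neither with the count table. Wilson intervals cover counting error only.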

Additional observations from a re-analysis of the deposited data

Results flagged for a closer look

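Of 22 groups of 4 to 10 libraries examined, 0 had a library far from the others. Chance alone marks about 1 in 20 such groups. The effects below differed between handlings by a test of the difference itself, each over 12 labelled libraries.

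The gap in converted share between contig reads and all other reads changed by -25.7 percentage points from DO to IH (exact permutation test within chemistry, p = 0.00926), from 6.51 to -19.1. The converted share of contig reads differed by 3.62 points, which did not pass (exact permutation test, p = 0.111), while that of other reads rose by 29.3 points. The mean number of T positions of other reads moved with handling too, from 29.8 to 37.6, and with other reads weighted to the T numbers of contig reads the change was -11.1 points (exact permutation test, p = 0.00926). Chromosome 21 was kept among the other reads, and its part in the change was not tested.

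The excess in estimated new share of contig reads over exonic gene reads changed by -13.8 points (exact permutation test, p = 0.00926), from 21.2 to 7.42. The exonic share rose by 12.9 points and the contig share changed by -0.931.

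The effect of the label on the converted share of contig reads was 4.29 points larger under IH than under DO (exact permutation test, p = 0.037), at 23.5 against 19.2 points. Under STAR the label effect was 26 against 25.1 points. The subtracted value is that of 1 unlabelled library per chemistry and handling, whose own error the test leaves out. Without subtraction, handling changed the converted share by 3.62 points under HISAT-3N and by 0.957 points under STAR, and neither passed (exact permutation tests, p = 0.111 and 0.611).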

How the results depend on the processing

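Outside the leave-one-out fits, 112 of the recomputed values were counted as unchanged. Beside them, 7 turned direction, 6 lost their call, 4 gained one and 2 mean new shares moved. A value with a test was unchanged when it kept its direction and its side of the threshold of 0.05. A mean new share has no test, and was unchanged when it moved by less than the SD over libraries. Under STAR, the handling difference in new share was -7.36 points (exact permutation p = 0.00926), the DO new share 45.2%, and chrKI270733.1 minus chrGL000220.1 12.3 points, or 0.649 among uniquely placed reads, an alternative chosen after seeing the data. With at least 2 mismatches, the DO gap between contig and other reads was 0.664 points and STAR minus HISAT-3N -0.117. With at least 10 T positions, the handling difference in converted share was 5 points. On chrGL000220.1 alone, the DO gap was 9.69 points (exact sign-flip permutation p = 0.0625), the DO new share 42% and STAR minus HISAT-3N -13.9. On chrKI270733.1 alone, the IH excess over exonic reads was 5.41 points. With the unlabelled library subtracted, the handling differences, by exact permutation tests, were 1.14 points in contig share, 4.29 in converted share and 6.68 per 1000 T. With the rate fitted on contig reads, the handling difference in new share was 4.31 points. With the rate fitted on each class of reads by itself, the IH excess over exonic reads was 13.4 (exact permutation p = 0.0625). With old reads as a binomial, the same handling difference was 1.12 and the same IH excess 5.03. Weighted to T positions, also added later, the IH gap was -2.41. Except where a value beside the result shows otherwise, the cause was not tested.

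Leaving out 1 library at a time, the label effect ran from 18.1 to 20.3 points under DO and from 22.6 to 24.4 under IH, the contig gap from 5.87 to 7.3 and from -20.5 to -17.7, and the excess over exonic reads from 19.6 to 23.1 and from 4.83 to 8.85. These lost their call because 5 libraries allow no p below 0.0625, or 0.0556 for the label effect. The handling difference ran from -17.1 to -12.7 points in contig share, from -16.6 to -14.4 with all libraries, from 2.48 to 4.76 in converted share, from 2.38 to 6.14 per 1000 T and from -2.21 to 0.351 in new share, where it turned without the first DO library of NaIO4 and TFEA (0.351). The DO and IH new shares ran from 31.8% to 35.5% and from 30.3% to 34.9%.

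Same-numbered libraries deviated together with correlations of 0.075, 0.315 and 0.116 over 32 sequences, so the numbers were not taken to pair them. With the replicate number as a block, the handling difference was -14.9 points in contig share (p = 0.0312), 3.62 in converted share (p = 0.0938), -0.931 in new share (p = 0.594) and 4.26 per 1000 T (p = 0.0938), by exact permutation, and no call changed. The intronic and gene-level alternatives and subtraction from the new share or over all libraries could not be run.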
